A study of Mus musculus with 4 samples.

Results

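BMP and TGF-beta signalling genes were followed in forelimb buds of mouse embryos with and without conditional knockout of Smarcc1, whose product BAF155 is a scaffold of SWI/SNF-type chromatin remodellers. The 45 genes were taken from a list of BMP and TGF-beta ligands, receptors, SMADs, antagonists and targets, and all 45 were found among the 35682 genes of the deposited table. Knockout embryos had the genotype PrxCre/+;Smarcc1c/c and controls Prx+/+;Smarcc1c/c, so both groups were homozygous for the conditional allele and only the knockouts carried Cre. PrxCre is driven by a Prrx1 enhancer that is active in limb bud mesenchyme, so surface ectoderm, blood and vessels of the knockout buds are outside its main domain. RNA came from the right and left forelimb buds of individual embryos at E11.5, with n = 2 embryos per genotype, 1 at 40 somites (replicate 1) and 1 at 39 somites (replicate 2).

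BMP and TGF-beta ligands are secreted dimers that bring type I and type II serine/threonine kinase receptors together. The type I receptor then phosphorylates SMAD proteins (SMAD1, SMAD5 and SMAD9 for most BMPs, SMAD2 and SMAD3 for TGF-beta and activin), which enter the nucleus with SMAD4. In the limb bud, BMPs from the mesenchyme and the apical ectodermal ridge, an epithelium along the tip that signals to it, are held in balance with the antagonist gremlin, and Id and Msx genes are among their best known targets.

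Expression was measured by RNA sequencing and deposited as TPM, a level scaled for transcript length and for the library total. Each library had 12555 to 12689 genes at a TPM of 1 or more. TPM keeps no record of read depth, so precision rests on the spread between embryos. The standard error (SE) of a gene is limma's, which pools its own spread with that of genes of like level. Smarcc1 stood at 46.2 and 38.4 TPM in the knockouts, with the controls at 112 and 119.6 TPM, 0.365 of the control mean. Ddx3y, on the Y chromosome, had levels of 28.3 and 30.2 TPM in the 39-somite embryos and of 0.0498 and 0.0130 TPM in the 40-somite embryos, so sex and somite stage cannot be told apart and both were balanced between the genotypes. Limb mesenchyme markers were present, with 6 of 6 tested and summed levels of 493 and 597 TPM in knockout and 572 and 695 TPM in control buds. Of the 6 markers, 4 had log2 fold changes below 0 and 2 above. Prrx1 stood at 129.9 and 139.8 TPM against 188 and 201 TPM. It was called lower with stage in the model (-0.53; adjusted p = 0.0293) but not without it (0.101, by limma with Benjamini-Hochberg). Twist1 went the other way, at 163 and 198 TPM against 129 and 151 TPM, and did not pass (0.36, adjusted p = 0.344 by limma with Benjamini-Hochberg). The 10 markers of surface ectoderm and ridge were also present, and all 10 had log2 fold changes below 0, with sums of 339 and 242 TPM in the knockouts, with the controls at 546 and 390.1 TPM. No tested endothelial, erythroid, macrophage, myoblast or early cartilage marker passed, with 1 erythroid, 1 macrophage and 1 myoblast marker at an unadjusted p under 0.05 in limma, the macrophage one having met the filter in the controls alone. Log2 fold changes were above 0 in 5 of 5 erythroid, 4 of 4 myoblast, 2 of 2 early cartilage, 5 of 6 endothelial and 0 of 4 macrophage markers tested. In whole buds, fewer cells of a type and less RNA per cell cannot be told apart. Pairs of values below give the 40-somite embryo first and the 39-somite embryo second.

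The 45 genes spanned a wide range of levels. Id2, Id1, Id3 and Bmp4 had the highest means over the 4 libraries, at 217, 143, 136 and 105 TPM. Inhba and Inhbb, which encode activin subunits, had the lowest, both at 0.10 TPM. The test required a TPM of 1 or more in 2 or more libraries, and 39 of the 45 met this. Gdf5 and Gdf6 entered the test through the control libraries alone. The 6 that were not tested were Bmp3, Bmp6, Inhba, Inhbb, Smad9 and Nog.

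**Figure D1:**
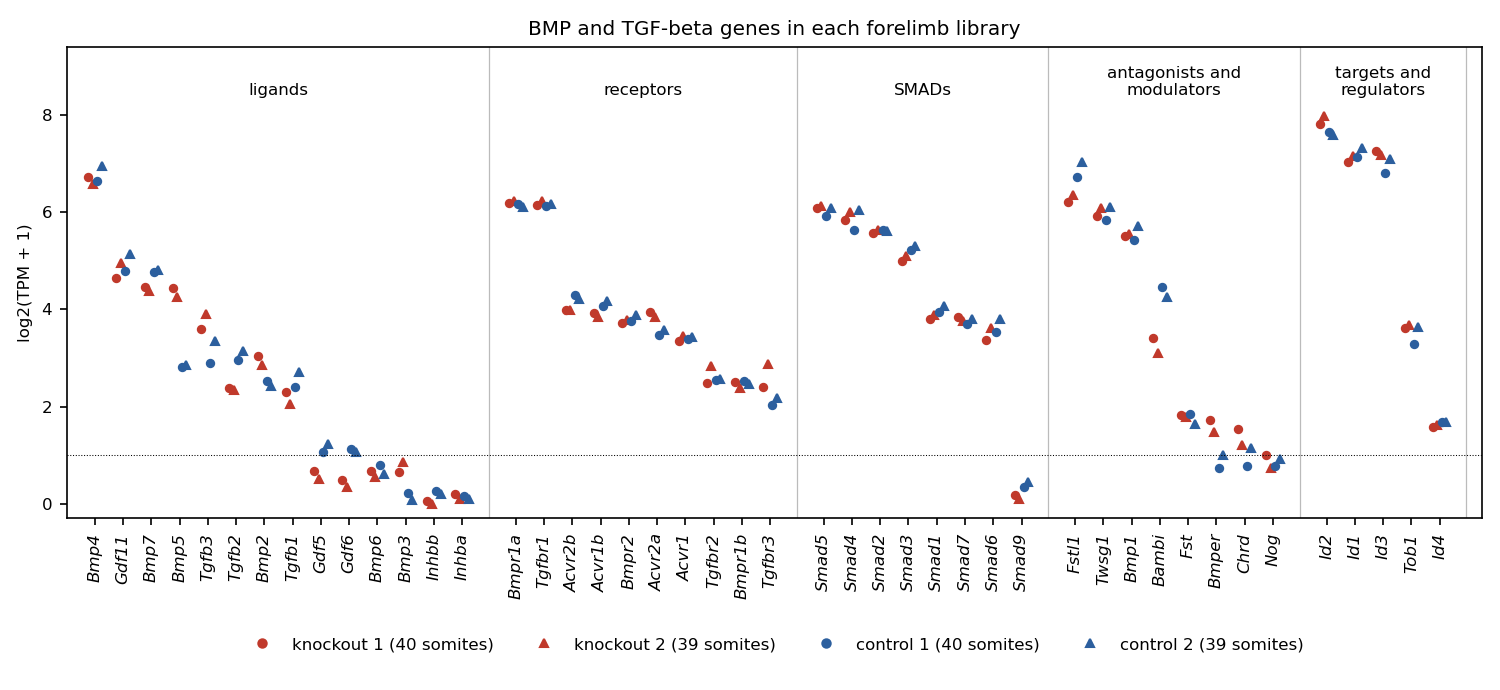
Level of each of the 45 genes in each library as log2(TPM + 1), ordered within each role by mean level; red is knockout, blue is control, circles are 40-somite and triangles 39-somite embryos, and the dotted line marks a TPM of 1. Bmp5 and Bambi are the genes in which red and blue points lie farthest apart, and most receptors and SMADs show all 4 points close together.

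Bmp5 rose and Bambi fell in the knockout forelimbs, and most of the pathway did not pass the test. By limma with Benjamini-Hochberg adjustment over 12809 genes, 2 of the 39 tested genes (5.13%) passed at 0.05 (were called), against 1.30% of all tested genes. The background was 0.812% for calls higher in knockout, where 1 of the 39 was called, and 0.492% for calls lower, also with 1. With somite stage added to the model, Tgfb3 was also called higher and Fstl1 lower, 4 of 39 (10.3%) against 4.16% of all tested genes (2 higher against 2.08% and 2 lower against 2.08%). That model leaves 1 degree of freedom per gene for the spread, so its SE rests mostly on other genes. At an unadjusted p under 0.05 there were 13 of 39 (33.3%) against 13.7% of all tested genes, with 7 higher (background 6.78%) and 6 lower (background 6.89%). Gdf5 and Gdf6 are among the 6 and entered the test through the controls alone, with knockouts below the filter, so nothing is read from them. Without them there were 11 of 37 (29.7%), 7 higher and 4 lower. The genotypes did not overlap in 23 of the 39, or 59%, against 43.9% of all tested genes, 11 of them higher (background 22.7%) and 12 lower (background 21.2%), or 21 of 37 (56.8%) without Gdf5 and Gdf6. The median log2 fold change of the 39 was -0.01, and that of all tested genes was 0.01. The median size without sign was 0.19 in the 39, 0.17 without Gdf5 and Gdf6, and 0.14 over all tested genes. The genes were chosen with earlier results of these data known, so these shares and medians describe the list only.

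**Figure D2:**
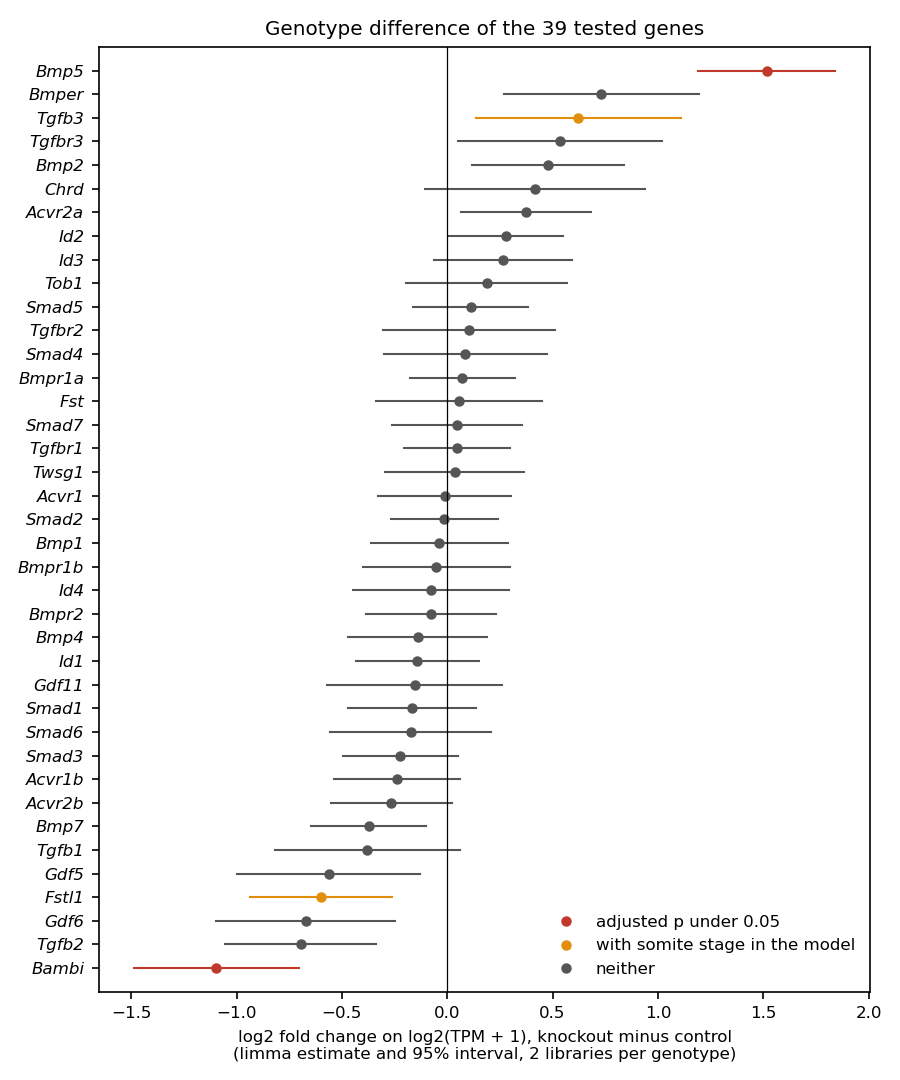
Log2 fold change of the 39 tested genes (knockout minus control, log2(TPM + 1)) as the limma estimate (point) with its 95% interval (line), n = 2 libraries per genotype. Bmp5 at 1.52 and Bambi at -1.10 stand at the ends of the order, 26 of the intervals span 0, and Gdf5 and Gdf6 were tested through the controls alone.

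Among the BMP ligands, Bmp5 rose while the more abundant Bmp4 did not pass. Bmp5, a ligand of the BMP5/6/7 subgroup needed for normal skeletal pattern, stood at 20.8 and 18.1 TPM in knockout and 6.03 and 6.22 TPM in control buds. The groups were far apart and the libraries of each genotype close together. The log2 fold change was 1.52 ± 0.13 (SE; n = 2 embryos each; adjusted p = 0.0117 by limma with Benjamini-Hochberg), a ratio of mean TPM of 3.17. Bmp5 (ENSMUSG00000032179) lies on chromosome 9 of mm10, from 75775364 to 75900310 on the plus strand. The call ended with no filter on low values, where the fold was the same and limma's adjusted p was 0.111. Over 14 alternative fits the log2 fold change ranged from 1.13 to 1.65.

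The promoter of Bmp5 is shown because this gene had the largest rise of the 39 tested genes on the log2(TPM + 1) scale. Beside it are those of Fstl1, lower with stage in the model, and of Id2 and Msx1, known BMP targets with different results here. Each window covers 250 bases before and 50 after the start in RefSeq's GRCm38.p6, in which 30 of the 45 genes were matched. Capitals mark matches on either strand to 3 SMAD-related motifs: GTCTAGAC, the palindromic SMAD-binding element; GGCGCC, a GC-rich site; and CAGACA, which reads TGTCTG on the other strand and is a SMAD box with flanking bases. No matches share bases in these windows.
Bmp5, chr9:75775115-75775414, plus strand: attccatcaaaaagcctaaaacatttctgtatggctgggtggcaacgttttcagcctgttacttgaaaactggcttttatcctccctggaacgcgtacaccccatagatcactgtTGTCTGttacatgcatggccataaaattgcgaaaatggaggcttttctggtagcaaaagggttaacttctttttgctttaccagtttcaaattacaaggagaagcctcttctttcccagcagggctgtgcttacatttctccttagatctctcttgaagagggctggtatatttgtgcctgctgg
Fstl1, chr16:37776805-37777104, plus strand: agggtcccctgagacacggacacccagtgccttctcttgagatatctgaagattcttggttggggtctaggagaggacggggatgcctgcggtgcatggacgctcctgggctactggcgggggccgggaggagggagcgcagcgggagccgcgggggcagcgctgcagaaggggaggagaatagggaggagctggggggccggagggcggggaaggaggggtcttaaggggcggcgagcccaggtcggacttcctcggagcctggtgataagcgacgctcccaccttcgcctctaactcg
Id2, chr12:25096043-25096342, minus strand: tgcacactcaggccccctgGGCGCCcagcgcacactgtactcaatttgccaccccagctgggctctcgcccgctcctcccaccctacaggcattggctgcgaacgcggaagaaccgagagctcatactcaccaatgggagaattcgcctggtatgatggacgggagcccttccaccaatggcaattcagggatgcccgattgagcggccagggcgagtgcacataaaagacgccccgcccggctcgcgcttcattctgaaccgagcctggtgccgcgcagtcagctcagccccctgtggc
Msx1, chr5:37824536-37824835, minus strand: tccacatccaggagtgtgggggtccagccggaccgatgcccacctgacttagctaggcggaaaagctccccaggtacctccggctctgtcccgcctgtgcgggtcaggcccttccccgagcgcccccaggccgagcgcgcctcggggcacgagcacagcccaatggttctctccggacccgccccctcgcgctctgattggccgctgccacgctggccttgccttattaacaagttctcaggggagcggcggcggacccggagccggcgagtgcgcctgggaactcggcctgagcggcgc
The Bmp5 window holds TGTCTG at base 116, chr9:75775230-75775235, and the Id2 window holds GGCGCC at base 20, chr12:25096318-25096323. None of the 3 motifs occurs in the Fstl1 or Msx1 window. CAGACA occurs in 21% of all 32851 promoter windows and in 5 of the 35 windows of these genes. GGCGCC occurs in 11.9% of all windows and in 10 of the 35, whose median GC content was 67% against 52.7% over all windows. GTCTAGAC occurs in 0.213% of all windows and in 1 of the 35, that of Smad6. The Bmp5 window had a GC content of 43.3%, lower than the 66.7% of Fstl1, 63.3% of Id2 and 70% of Msx1.

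Bmp4, the main BMP ligand of limb mesenchyme and ridge, stood at 104 and 95.4 TPM in the knockouts, with the controls at 98.9 and 122 TPM. The groups overlapped, and the log2 fold change was -0.14 with a 95% interval from -0.47 to 0.19. Bmp7, a second ligand made in mesenchyme and ridge, stood at 20.9 and 19.8 TPM against 26.2 and 27.1 TPM in the controls. The groups did not overlap, and the difference did not pass over all genes (-0.37 ± 0.11; adjusted p = 0.225 by limma with Benjamini-Hochberg). Bmp2, expressed posteriorly and in the ridge, stood at 7.26 and 6.26 TPM against 4.75 and 4.35 TPM. Both knockouts were above both controls, with a log2 fold change of 0.48 ± 0.15 that did not pass (adjusted p = 0.232 by limma with Benjamini-Hochberg).

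The 4 main BMP ligand transcripts had sums that overlapped between genotypes and shares that did not. Summed over Bmp2, Bmp4, Bmp5 and Bmp7, the level was 153 and 139.5 TPM in knockout and 136 and 159.7 TPM in control buds. Bmp5 took 13.6% and 13.0% of this sum in the knockouts and 4.44% and 3.89% in the controls. Bmp7 took 13.7% and 14.2% in the knockouts and 19.3% and 17.0% in the controls. In the controls Bmp5 was at 0.230 and 0.229 of the level of Bmp7, and in the knockouts at 0.993 and 0.912.

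Gdf5 and Gdf6, which mark developing joints, were near the detection filter. Gdf5 stood at 0.587 and 0.429 TPM in the knockouts, with the controls at 1.10 and 1.36 TPM. Gdf6 stood at 0.413 and 0.269 TPM against 1.17 and 1.09 TPM. In both genes only the control libraries met the filter, so their levels are given with no test. Bmp3, an inhibitory member of the family, was listed at 0.577 and 0.819 TPM against 0.174 and 0.0583 TPM and was below the filter. Bmp6 ranged from 0.462 to 0.741 TPM over the 4 libraries. Gdf11, a ligand of the activin branch that acts in axial patterning, stood at 24.1 and 30.1 TPM against 26.5 and 34.2 TPM. In both genotypes its 39-somite library was the higher, and the groups overlapped (log2 fold change -0.16, 95% interval -0.57 to 0.26).

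**Figure D3:**
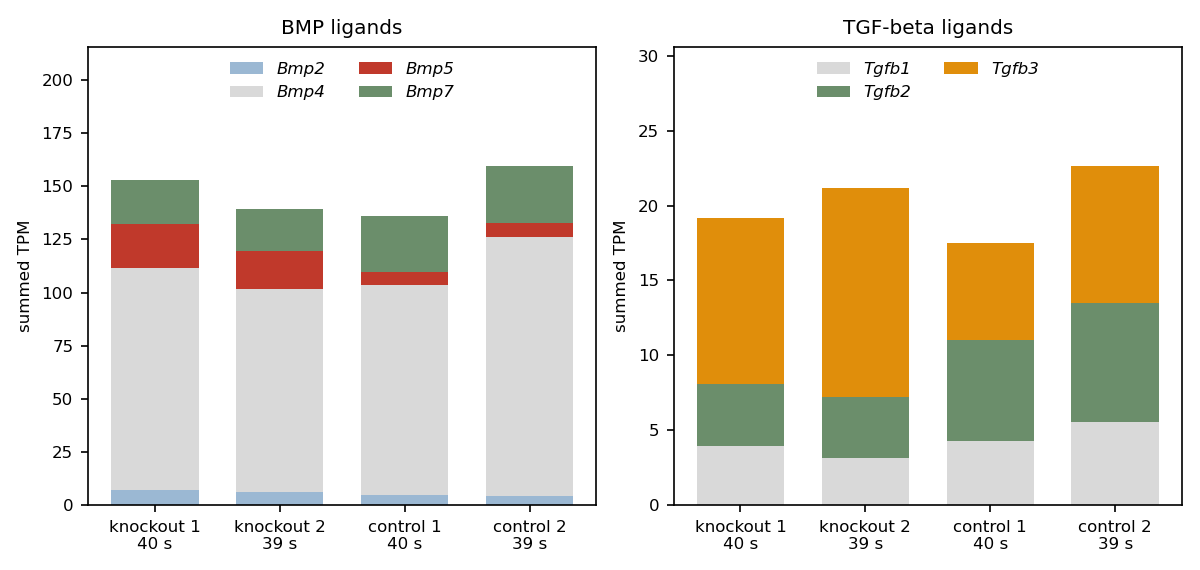
Summed TPM of Bmp2, Bmp4, Bmp5 and Bmp7 (left) and of Tgfb1, Tgfb2 and Tgfb3 (right) in each library, stacked by gene, with 40 s and 39 s for 40 and 39 somites. The Bmp5 segment is 20.8 and 18.1 TPM in knockout and 6.03 and 6.22 TPM in control buds, and the Tgfb3 segment is the largest of the right panel in both knockouts.

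The 3 TGF-beta ligand genes differed in direction. Tgfb3, expressed in limb mesenchyme and later in tendon and cartilage precursors, stood at 11.1 and 13.9 TPM in the knockouts, with the controls at 6.45 and 9.20 TPM. Each knockout was above its control of the same stage, and the lower knockout was above the higher control. The log2 fold change was 0.62 ± 0.20 without stage in the model (SE; n = 2 embryos each; adjusted p = 0.250 by limma with Benjamini-Hochberg) and 0.62 ± 0.10 with it (adjusted p = 0.0474). Over 14 alternatives the log2 fold change ranged from 0.40 to 0.85. Tgfb3 (ENSMUSG00000021253) lies on chromosome 12 from 86056745 to 86079041 on the minus strand and overlaps Ttll5 on the other strand, at 8.23 to 9.78 TPM, and whether the counting used strand is not given in the sources used here.

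Tgfb2 stood at 4.19 and 4.07 TPM in knockout and 6.75 and 7.90 TPM in control buds. The groups did not overlap, and the log2 fold change of -0.70 ± 0.15 did not pass without stage or with it (adjusted p = 0.109 and 0.0550 by limma with Benjamini-Hochberg; range over 14 alternatives 0.0550 to 0.279). The ratio of Tgfb3 to Tgfb2 in TPM was 2.64 and 3.43 in the knockouts and 0.956 and 1.16 in the controls, while the sum of the 3 ligands overlapped between genotypes, at 19.2 and 21.2 TPM against 17.5 and 22.7 TPM. Tgfb1, which is common in blood, vessel and immune cells, stood at 3.91 and 3.17 TPM against 4.28 and 5.57 TPM. Control replicate 2 was the highest, as it was in the sum of 5 macrophage markers (7.78 and 6.76 TPM in knockout, 7.70 and 12.8 TPM in control buds). Of these markers 4 were tested, all 4 with log2 fold changes below 0 and 1 of them through the controls alone, and their part in the level of Tgfb1 was not tested. Its own difference did not pass (-0.38 ± 0.18; adjusted p = 0.441 by limma). The activin subunit gene Inhba ranged from 0.0717 to 0.144 TPM. Inhbb was listed at 0 in knockout replicate 2 and at 0.0453, 0.203 and 0.159 TPM in knockout replicate 1 and the controls.

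Receptor genes were all above the filter, and 0 of 10 passed by limma with Benjamini-Hochberg adjustment, against 1.30% of all tested genes. At an unadjusted p under 0.05 there were 2 of 10, both higher, against 13.7% of all tested genes in either direction. Bmpr1a, the main BMP type I receptor of limb mesenchyme, stood at 71.8 and 74.0 TPM in the knockouts, with the controls at 70.9 and 67.7 TPM. Tgfbr1, the TGF-beta type I receptor, stood at 70.2 and 74.1 TPM against 68.8 and 70.9 TPM. These were the most abundant receptors, and their 95% intervals on the log2 scale ran from -0.18 to 0.32 and from -0.20 to 0.30. Bmpr1b, the type I receptor of cartilage condensations and digits, stood at 4.66 and 4.23 TPM against 4.73 and 4.55 TPM. Acvr1, another BMP type I receptor, stood at 9.22 and 9.97 TPM against 9.50 and 9.87 TPM. In both of these the genotypes overlapped.

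The receptors with the smallest p-values were Acvr2a and Tgfbr3. Acvr2a, a type II receptor for activins and BMPs, stood at 14.3 and 13.4 TPM in knockout and 10.1 and 10.9 TPM in control buds. Its knockouts were above its controls, and its log2 fold change of 0.37 ± 0.13 did not pass (adjusted p = 0.273 by limma with Benjamini-Hochberg). Acvr2a overlaps Orc4 on the other strand, at 79.7 to 86.4 TPM. Tgfbr3 encodes betaglycan, a co-receptor that presents TGF-beta2, and stood at 4.32 and 6.39 TPM against 3.10 and 3.56 TPM. The 39-somite knockout was the highest, and the log2 fold change of 0.54 ± 0.20 did not pass (adjusted p = 0.315 by limma with Benjamini-Hochberg).

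The paralog Acvr2b stood at 15.0 and 14.9 TPM in the knockouts, with the controls at 18.8 and 17.6 TPM, on the opposite side from Acvr2a. Acvr1b, the activin type I receptor, stood at 14.2 and 13.4 TPM against 15.8 and 17.1 TPM. Both genes had knockouts below controls and log2 fold changes of -0.27 and -0.24 that did not pass (95% intervals -0.55 to 0.02 and -0.54 to 0.06). Bmpr2, the BMP type II receptor, stood at 12.1 and 12.8 TPM against 12.5 and 13.8 TPM. Tgfbr2, the TGF-beta type II receptor, stood at 4.61 and 6.11 TPM against 4.84 and 4.92 TPM. These last genes overlapped between genotypes.

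No SMAD gene passed. Of 8 genes 7 were tested, and 0 passed by limma with Benjamini-Hochberg adjustment, against 1.30% of all tested genes. At an unadjusted p under 0.05 in limma there were also 0, against 13.7% of all tested genes. With so few genes, nothing is read from these counts. The log2 fold changes of the 7 lay between -0.22 and 0.11. Smad5 was the most abundant BMP-branch SMAD gene, at 67.4 and 69.0 TPM in knockout and 59.2 and 67.2 TPM in control buds. Smad1, of the same branch, stood at 12.9 and 13.7 TPM against 14.4 and 15.8 TPM. Smad9, the third of that branch, was below the filter, listed at 0.136 and 0.0677 TPM against 0.269 and 0.363 TPM.

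Smad2, of the TGF-beta branch, stood at 46.8 and 48.8 TPM in the knockouts, with the controls at 48.9 and 47.7 TPM, with a 95% interval on the log2 scale from -0.27 to 0.24. Smad3, its partner, stood at 30.8 and 33.2 TPM against 36.3 and 38.6 TPM. Smad3 had both knockouts below both controls, and its log2 fold change of -0.22 (95% interval -0.49 to 0.05) did not pass. The common partner Smad4 stood at 56.6 and 63.4 TPM against 48.9 and 65.0 TPM, and the spread between the controls was larger than the difference between genotypes. The inhibitory SMAD genes, which are feedback targets of the pathway, were also close. Smad6 stood at 9.42 and 11.2 TPM against 10.6 and 12.9 TPM. Smad7 stood at 13.4 and 12.5 TPM against 12.0 and 13.05 TPM. Both overlapped between genotypes, with 95% intervals from -0.55 to 0.21 for Smad6 and from -0.26 to 0.36 for Smad7.

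Among antagonists and modulators, Bambi fell. Bambi encodes a pseudoreceptor that resembles a type I receptor without a kinase domain and is itself induced by BMP. Its level was 9.69 and 7.57 TPM in knockout and 20.96 and 18.1 TPM in control buds. The groups were well separated, at 0.442 of the control mean, and the log2 fold change was -1.10 ± 0.16 (SE; n = 2 embryos each; adjusted p = 0.0409 by limma with Benjamini-Hochberg). Bambi (ENSMUSG00000024232) lies on chromosome 18 from 3507923 to 3516404 on the plus strand. The call ended under median-ratio scaling (0.0791), quantile normalization (0.0839), with no filter on low values (0.198), without control replicate 1 (0.127) and without control replicate 2 (0.0895), and held in 9 of 14 alternatives (limma adjusted p from 1.22e-05 to 0.198).

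Markers of surface ectoderm and ridge moved in the same direction as Bambi. All 10 lay below 0, with a median log2 fold change of -0.63 and a range from -1.40 to -0.31, and the ridge genes Fgf8 and Sp6 fell (-1.09 and -1.40; adjusted p = 0.0283 for each by limma with Benjamini-Hochberg). The mean of the 10, knockout minus control, was -0.69 at both 40 and 39 somites. Bambi was higher at 40 than at 39 somites in both genotypes, as was the sum of these markers. The part of ectoderm in the fall of Bambi was not tested.

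Fstl1, a secreted follistatin-like glycoprotein that can bind BMPs and the most abundant gene of this role, stood at 73.5 and 80.8 TPM in the knockouts, with the controls at 105 and 131 TPM. The groups did not overlap, at 0.654 of the control mean. The log2 fold change of -0.60 did not pass without stage in the model (SE 0.14; adjusted p = 0.130 by limma with Benjamini-Hochberg) and passed with it (SE 0.08; adjusted p = 0.0299). Over 14 alternatives the log2 fold change ranged from -0.76 to -0.44. Fstl1 (ENSMUSG00000022816) lies on chromosome 16 from 37776873 to 37836514 on the plus strand.

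Bmper, a secreted protein that binds BMPs and can act for or against them, was low but separated, at 2.32 and 1.795 TPM in knockout and 0.676 and 1.01 TPM in control buds. Its log2 fold change of 0.73 ± 0.19 did not pass (adjusted p = 0.171 by limma with Benjamini-Hochberg), and it was called without knockout replicate 2 alone among 13 alternatives (0.86 on the log2 scale; adjusted p = 0.0414; range 0.0414 to 0.450). Chordin, encoded by Chrd, blocks BMPs outside the cell, and Chrd stood at 1.91 and 1.31 TPM against 0.711 and 1.20 TPM. Its lower knockout was close to its higher control, and the log2 fold change was 0.42 with a 95% interval from -0.10 to 0.94. Noggin, another blocker, is encoded by Nog, which was near 1 TPM throughout, at 1.001 and 0.658 TPM against 0.728 and 0.900 TPM, and was not tested. Fst, which encodes the activin-binding follistatin, stood at 2.56 and 2.45 TPM against 2.61 and 2.14 TPM.

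The other abundant modulators overlapped between genotypes. Twsg1, a partner of chordin and BMPs, stood at 59.8 and 67.0 TPM in the knockouts, with the controls at 56.0 and 68.0 TPM. Bmp1, which despite its name encodes a protease that cleaves chordin and procollagens, stood at 44.5 and 46.1 TPM against 41.8 and 51.7 TPM. Their 95% intervals on the log2 scale were -0.29 to 0.37 and -0.36 to 0.29.

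Antagonists outside the 45 genes were read from a further list of 22 antagonists and extracellular modulators, of which 13 were tested. The further lists were written with earlier results on some of their genes known. By limma over all genes 1 of the 13 rose, 0 fell and 12 did not pass. Without adjustment, 4 had p under 0.05 upwards and 1 downwards (background 6.78% and 6.89% of all tested genes, and 0.812% and 0.492% after adjustment), and the median log2 fold change was 0.22. Sostdc1, which encodes a secreted antagonist of BMP and WNT ligands, rose, with 30.2 and 31.9 TPM in the knockouts over 9.47 and 6.50 TPM in the controls. The log2 fold change was 1.86 ± 0.18 (SE; n = 2 embryos each; adjusted p = 0.0150 by limma with Benjamini-Hochberg), and the call ended with no filter on low values (0.140). Its log2 fold change was larger in size than that of any other tested gene of either list.

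Grem1, the gremlin gene that restrains BMPs in the limb bud, stood at 43.46 TPM in both knockouts and at 28.1 and 37.5 TPM in the controls. Its knockouts were above its controls, and the difference did not pass (0.41 ± 0.16; adjusted p = 0.322 by limma with Benjamini-Hochberg). Chrdl1, a chordin-like antagonist, stood at 15.9 and 13.4 TPM against 8.84 and 10.6 TPM, and did not pass (0.55 ± 0.15; adjusted p = 0.200 by limma with Benjamini-Hochberg). Thbs1, whose product can activate latent TGF-beta, stood at 31.0 and 28.5 TPM against 23.3 and 17.8 TPM, and did not pass (0.52 ± 0.16; adjusted p = 0.219). Summed over the 8 antagonists and modulators of the 45 genes, the level was 195 and 208 TPM in knockout and 229 and 274 TPM in control buds. Over the 22 of the further list it was 237 and 220.1 TPM in the knockouts, with the controls at 169.9 and 178 TPM. The sums of the lists lay on opposite sides, and over all 30 genes the genotypes overlapped, at 433 and 428 TPM against 399 and 452 TPM. Single genes weigh heavily in these sums. Fstl1, in the first, stood at 73.5 and 80.8 TPM against 105 and 131 TPM. Sostdc1, in the second, stood at 30.2 and 31.9 TPM against 9.47 and 6.50 TPM. The lists also hold genes that are not blockers, such as Bmp1 and Thbs1.

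**Figure D4:**
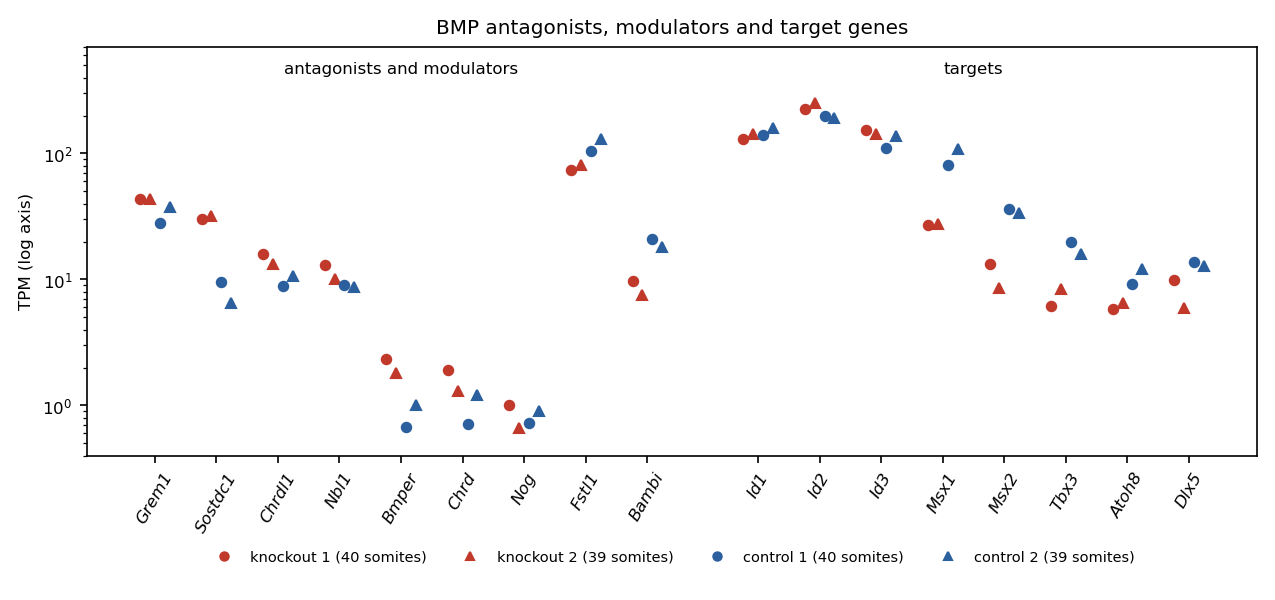
TPM on a log axis of BMP antagonists and modulators (left) and target genes (right) in each library; red is knockout, blue is control, circles are 40-somite and triangles 39-somite embryos. Sostdc1 lies higher in both knockouts, Bambi, Msx1, Msx2 and Tbx3 lie lower, and the points of Id1 overlap.

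The target genes did not move as a block: the Id genes did not pass, while Msx1 and Msx2 fell. Id proteins bind basic helix-loop-helix factors and block their contact with DNA. Id1 stood at 129 and 142 TPM in the knockouts, with the controls at 140.02 and 159.9 TPM, with overlapping groups and a 95% interval on the log2 scale from -0.43 to 0.15. Id2 stood at 225 and 251 TPM against 199 and 192 TPM. Its knockouts were above its controls, and its log2 fold change of 0.28 ± 0.11 did not pass (adjusted p = 0.350 by limma with Benjamini-Hochberg). Id3 stood at 152 and 143 TPM against 110.2 and 137 TPM, with its knockouts also above its controls and a 95% interval from -0.06 to 0.59. Id4 was far lower than the others, between 2.01 and 2.20 TPM. Tob1, an antiproliferative protein gene whose product can bind SMADs, stood at 11.3 and 11.7 TPM against 8.78 and 11.4 TPM. Summed over Id1 to Id4 the level was 509 and 538 TPM in knockout and 452 and 491 TPM in control buds, so the sums did not overlap between genotypes.

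Msx1 and Msx2, homeobox genes that respond to BMP in limb mesenchyme and ridge, were read from the further list of 15 target genes. Msx1 stood at 27.0 and 27.8 TPM against 81.5 and 108.9 TPM, and fell by 1.75 on the log2 scale (SE 0.16; adjusted p = 0.0117 by limma with Benjamini-Hochberg). Msx2 stood at 13.3 and 8.53 TPM against 36.4 and 33.8 TPM, and fell by 1.62 (SE 0.20; adjusted p = 0.0283 by limma with Benjamini-Hochberg). In each gene both knockouts were far below both controls. The ratio of Id2 to Msx1 in TPM was 8.34 and 9.03 in the knockouts against 2.45 and 1.76 in the controls. This ratio restates the levels of Id2 and Msx1 and was not tested. Tbx3, a T-box gene of the bud margins that also responds to Hedgehog, stood at 6.21 and 8.41 TPM against 19.9 and 15.99 TPM and fell by 1.19 (SE 0.18; adjusted p = 0.0465 by limma with Benjamini-Hochberg). The call for Msx1 ended with no filter on low values (0.119). Those for Msx2 and Tbx3 ended there (0.182 and 0.216), under median-ratio (0.0640 and 0.0730) and quantile scaling (0.0681 and 0.0840), without control replicate 1 (0.0917 and 0.138) or 2 (0.0828 and 0.0848), and for Tbx3 with no variance trend (0.0510).

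Of the 14 tested targets of that list, 0 rose and 3 fell by limma with Benjamini-Hochberg adjustment (background 0.812% and 0.492% of all tested genes). Counted at an unadjusted p under 0.05, 8 were lower (background 6.89%) and 0 higher (background 6.78%). Of the 8, 1 had met the filter in the controls alone. The median log2 fold change of the 14 was -0.49. Atoh8, a basic helix-loop-helix gene induced by BMP, stood at 5.87 and 6.52 TPM in the knockouts, with the controls at 9.23 and 12.1 TPM. It did not pass (-0.69 ± 0.17; adjusted p = 0.150 by limma with Benjamini-Hochberg) and passed with stage in the model (0.0474; range over 14 alternatives 0.0474 to 0.334). Dlx5, a homeobox gene of ridge and mesenchyme, stood at 9.82 and 5.96 TPM against 13.9 and 12.7 TPM, and was called without knockout replicate 1 alone (log2 fold changes -0.72 and, in that fit, -1.04; adjusted p = 0.233 and 0.00124 by limma with Benjamini-Hochberg; range 0.00124 to 0.693). Junb, an AP-1 subunit gene, stood at 2.81 and 3.10 TPM against 4.02 and 5.75 TPM. Junb overlaps Prdx2 on the other strand, at 870 to 1025 TPM, and Junb did not pass. Ectoderm and ridge markers, given beside Bambi, were lower in the same libraries, and their part in the falls of Msx1, Msx2 and Tbx3 was not tested.

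In all, 53 of the 85 further pathway genes were tested, and 4 (7.55%) passed by limma over all genes, 1 higher and 3 lower, against 1.30% of all tested genes. At an unadjusted p under 0.05 there were 17 (32.1%) against 13.7% of all tested genes, or 15 of 51 (29.4%) without the genes that met the filter in the controls alone. The further list was written with earlier results on some of its genes known, so these shares describe the list only. The 19 intracellular regulators tested, among them Smurf1, Smurf2, Ski and Tgif1, included 0 that passed by limma with Benjamini-Hochberg adjustment and 2 of 19 at an unadjusted p under 0.05, 1 in each direction, against 13.7% of all tested genes. Their median log2 fold change was -0.06. Rgmb, a BMP co-receptor gene, stood at 10.9 and 9.78 TPM against 7.197 and 7.75 TPM and did not pass (0.42 ± 0.14; adjusted p = 0.254 by limma with Benjamini-Hochberg). Gdf1, a ligand gene of left-right patterning, was listed at 0 and 0.435 TPM in knockout and 1.61 and 2.17 TPM in control buds. Gdf1 shares its span with Cers1 on the same strand, at 1.41 to 2.11 TPM, so that reads can be divided between them. Only the control libraries of Gdf1 met the filter, so its levels are given with no test.

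Differences between knockout and control had the same sign at 40 and at 39 somites in 30 of the 39 tested genes. The 23 genes whose genotypes did not overlap, Gdf5 and Gdf6 among them, must have the same sign at both stages. The share over all tested genes was not counted, so nothing is read from the 30. For Bmp5 the differences were 1.63 at 40 and 1.40 at 39 somites on the log2(TPM + 1) scale, with 1 library against 1 and no test. For Bambi they were -1.04 and -1.15. Fstl1 gave -0.51 and -0.69, and Tgfb3 gave 0.69 and 0.55. Chrd and Id3 were uneven, at 0.77 and 0.07 and at 0.46 and 0.07. Bmp4 changed sign, at 0.07 and -0.35, as did Smad4 at 0.21 and -0.04.

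**Figure D5:**
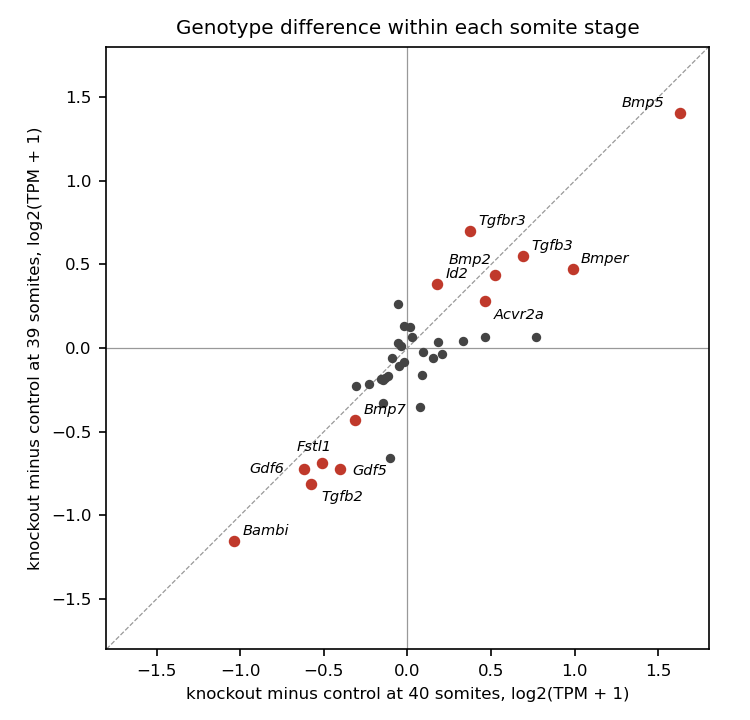
Knockout minus control on the log2(TPM + 1) scale at 40 somites (x axis) and at 39 somites (y axis), 1 library against 1 at each stage, for the 39 tested genes; the dashed line marks equal values, and genes with an unadjusted p under 0.05 are red and named. Gdf5 and Gdf6 are among the red genes but met the filter in the controls alone, so nothing is read from their color. Bmp5 lies at 1.63 and 1.40 and Bambi at -1.04 and -1.15, and most other points lie within 0.5 of 0 on both axes.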

How the data were processed

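RNA sequencing of 4 forelimb libraries, 2 per genotype, was deposited by the authors as TPM for 35727 Ensembl gene identifiers, and each column sums to 1000000. Salmon 1.9.0 and mm10 are named in the submitters' processing notes. The transcript set, gene summing and strand setting were not given in the sources used here. Columns were joined to samples by title, and 1 title lacked a letter of its column name. GENCODE M21 gave symbols for 99.3% of identifiers, and values of 45 repeated symbols were added up, leaving 35682 genes. The 12809 genes with TPM of 1 or more in 2 or more libraries were fitted as log2(TPM + 1) in limma 3.58.1 (R 4.3.3; lmFit, eBayes with a mean-variance trend, no covariate), with Benjamini-Hochberg adjustment and a threshold of 0.05. Fold changes on this scale understate those of low genes. The fit was first checked on simulated data. Replicates are separate embryos, numbered by accession order, and somite stage is the one label that links libraries of both genotypes.

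The genes, lists and naming rule were chosen with earlier results of these data known. All 45 genes are accounted for. Those given in full passed with or without stage in the model, had an unadjusted p under 0.05, or were among the 3 with the highest mean TPM of their role. From a further list of 85 pathway genes, those that passed are named, with up to 8 of the next smallest p-values, and Grem1, Msx1 and Msx2 whatever their result. A gene that this rule names is not reported here. Alternatives were pseudocounts of 0.1 and 5, no filter, a TPM filter of 5, median-ratio scaling, quantile normalization, a somite stage block, a fit lacking the variance trend, robust variance, leaving out each library, and leaving out sex-linked and erythroid genes. Promoters came from RefSeq (GRCm38.p6), with motifs searched on both strands.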

Additional observations from a re-analysis of the deposited data

How the results depend on the processing

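With 2 embryos per genotype and TPM without read depth, differences smaller than the spread between embryos could not be resolved, and a fit without 1 library assumes that the lone library varies like the other genotype. Without a knockout replicate, the SE of a gene followed its level and came from other genes, so nothing is read from calls in those fits. Of the 45 genes, the count called higher (1) became 0 with no filter on low values and 2 with a somite stage block, and ranged from 1 to 2 when each library was left out. The count called lower (1) became 0 with no filter, under median-ratio scaling and under quantile normalization, 2 with the stage block, and ranged from 0 (without either control) to 2 (without knockout replicate 2). With no filter, limma called 0 of all 20945 genes, and 16 of the 45 genes had an unadjusted p under 0.05. The count at an unadjusted p under 0.05 (13) became 8 with a TPM filter of 5, which tested fewer genes, and 8 to 9 when each library was left out. For the further pathway list, the count higher (1) became 0 with no filter, when 15 had an unadjusted p under 0.05. The count lower (3) became 0 with no filter, 1 under median-ratio scaling, 1 under quantile normalization and 5 with the stage block, and 1 to 5 when each library was left out. Its count at an unadjusted p under 0.05 (17) was 10 to 15 in those fits. The cause was not tested. Pairing libraries by somite stage as a block gave 533 calls over all genes against 167 without it, added Tgfb3, Fstl1, Atoh8 and Gdf1 (tested through the controls alone) among the pathway genes and Prrx1, Cldn6, Grhl3 and Perp among the markers of mesenchyme and ectoderm, and ended no call among the pathway genes.

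In every fit that tested them, 28 of the 39 tested genes kept their sign (the TPM filter of 5 tested 29). The other 11 did not pass in any fit, and their log2 fold changes changed sign only when 1 library was left out. The ranges over those fits were -0.0641 to 0.0383 for Acvr1 (0.01 without control replicate 2), -0.19 to 0.11 for Bmp1, -0.29 to 0.0099 for Bmp4, -0.11 to 0.0033 for Bmpr1b, -0.0451 to 0.16 for Fst, -0.33 to 0.0216 for Gdf11, -0.0426 to 0.0157 for Smad2 (0.00355 without control replicate 1), -0.12 to 0.29 for Smad4, -0.0088 to 0.10 for Smad7 (-0.0018 without knockout replicate 1), -0.0673 to 0.27 for Tgfbr2 and -0.10 to 0.17 for Twsg1 (-0.04 without knockout replicate 2).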

Other observations

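Differences between the 40-somite and 39-somite libraries, in which stage and sex cannot be told apart, had the same sign in both genotypes for 23 of the 39 tested genes. In 17 of them the 40-somite library was lower in both genotypes and in 6 higher, and 16 differed in sign. The shares over all tested genes were not counted, so nothing is read from these counts. Among the 23, named after their values were seen, were Tgfb3 (-0.31 in the knockouts and -0.45 in the controls on the log2(TPM + 1) scale, 40 minus 39 somites), Gdf11 (-0.31 and -0.35), Smad6 (-0.23 and -0.26) and Bambi (0.32 and 0.20). Each value sets 1 library against 1 and has no test. The sum of 6 endothelial markers was lower at 40 somites as well, with 50.8 (40 somites) and 74.2 TPM in knockout and 39.9 and 73.5 TPM in control buds. Their part in these differences was not tested.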
